A study of Mus musculus with 19 samples.

Results

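The RNA-seq libraries labelled as replicates 1 and 2 of mouse neural progenitors (NeuP) were set against each other gene by gene. They are 2 of the 19 samples of a study of the nucleoporin Nup153 in embryonic stem cells (ESC). Every gene with at least 1 FPKM (fragments scaled to transcript length and library size) in either library was kept, which gave 11712 of the 24016 genes in the table. The other 12304 genes lay below that floor, 7175 of them listed at 0 in both libraries, and the genes nearest to it stood at 1.0 FPKM inside and 0.999 FPKM outside. The measure was the difference in log2(FPKM + 1), replicate 1 minus replicate 2, so that a positive value means a higher level in replicate 1. A gene is called 2-fold different at 1 or more on that scale, which understates the fold of genes at low levels; ratios with an interval are of FPKM itself. With 1 library a side there is no estimate of the spread and no test, and everything that follows is a description by size.

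Both NeuP libraries were labelled as neural progenitor cells with no hairpin, no antibody and no DamID tag. Per the labels' protocols, NeuP were made from ESC through embryoid bodies exposed to Noggin, an inhibitor of BMP signalling, and were then grown in N2 and B27 medium with FGF2 and EGF. The labels name no parent line, genotype, passage or date for either library, and do not say whether the replicates were separate cultures, so the difference between them may hold technical as well as biological parts. The other RNA libraries came from E14 ESC transduced with hairpin #2 against Nup153, hairpin #4 against Nup153 or a non-target hairpin (the ESC control), selected with puromycin and grown on irradiated mouse embryonic fibroblasts. All 5 libraries were of polyadenylated, strand-specific RNA.

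Neural progenitors kept in FGF2 and EGF divide while expressing genes of radial glia, the stem cells of the embryonic nervous system. When such cells leave the cell cycle or lose the growth factors they can take on an astrocytic, oligodendroglial or neuronal fate, and Notch signalling through Hes genes is known to hold back neurons and to favour glia. In bulk RNA, fewer cells of a type and less RNA per cell cannot be told apart.

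The depth read from the steps in the FPKM values was 32.2 M reads in replicate 1 and 24.3 M in replicate 2, and lay between 25.4 and 31.2 M in the ESC libraries. Both NeuP libraries differed from the ESC control in a glial marker and in a marker of ESC. These markers do not tell dividing progenitors from other glia. Slc1a3, the glial glutamate transporter, was at 273 FPKM in replicate 1 and 321 FPKM in replicate 2, against 2.41 FPKM in the ESC control. Sox2, a transcription factor of neural stem cells and ESC alike, was at 110 FPKM in replicate 1, 84.2 FPKM in replicate 2 and 49.9 FPKM in the ESC control. Pou5f1, which defines ESC, was at 1.99 FPKM in replicate 1 and 1.65 FPKM in replicate 2, against 543 FPKM in the ESC control. Mki67, the marker of dividing cells, separated the libraries instead: it was at 1.18 FPKM in replicate 1, 80.2 FPKM in replicate 2 and 25.6 FPKM in the ESC control.

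Of the 11712 genes, 940 were at least 2-fold higher in replicate 1 (8.03%) and 1280 were at least 2-fold higher in replicate 2 (10.9%). After quantile scaling of the pair the counts were 1126 higher in replicate 1 and 1073 higher in replicate 2, so that which direction held more genes depended on the scaling. The same count between the ESC libraries of hairpins #2 and #4 gave 25 of 12321 genes higher in hairpin #2 (0.203%) and 23 higher in hairpin #4 (0.187%). Pearson's r over genes was 0.844 between the NeuP libraries and 0.994 between the hairpin libraries, where genes are not independent points. Differences of at least 4-fold were found for 439 genes between the NeuP libraries, 119 of them higher in replicate 1 and 320 higher in replicate 2, and for 0 genes between the hairpin libraries. The median difference over all genes was -0.10, and 44.4% of genes were higher in replicate 1 by any amount. The 54 gene lists described here held 138 of the 940 genes and 229 of the 1280, so that most of the difference lay outside them. The counts given for each list are to be read beside the shares of all genes, 8.03% and 10.9%. Counting error was small beside these sizes: of the 2220 genes past 2-fold, 58 had a 95% counting interval for the ratio that held 1.

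**Figure D1:**
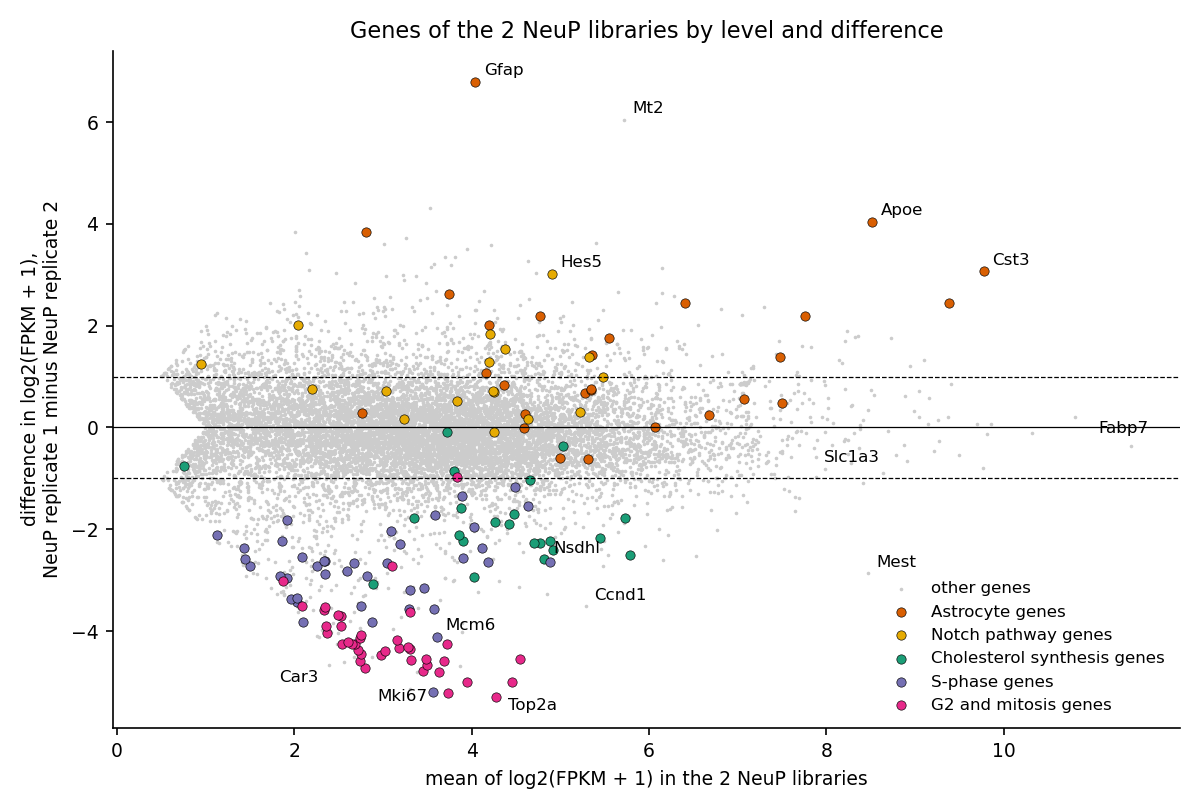
Each point is 1 of 11712 genes, by its mean log2(FPKM + 1) in the NeuP libraries (x axis) and its difference in log2(FPKM + 1), replicate 1 minus replicate 2 (y axis). Coloured points are members of 5 gene lists, dashed lines mark 2-fold, and the labelled genes run from Gfap at 6.80 to Top2a at -5.30, with Fabp7 and Slc1a3 near 0 at high levels.

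The genes of DNA replication and mitosis formed the largest block of differences. All 40 S-phase genes were at least 2-fold lower in replicate 1, with a median difference of -2.66, and 39 of 40 G2 and mitosis genes were, with a median of -4.28. Over all genes, 10.9% were that much lower in replicate 1. Summed over the list, the S-phase genes came to 113 FPKM in replicate 1, 905 FPKM in replicate 2 and 2020 FPKM in the ESC control. The G2 and mitosis genes came to 48.9 FPKM in replicate 1, 1660 FPKM in replicate 2 and 2810 FPKM in the ESC control. Replicate 2 was thus nearer to the ESC control than replicate 1 was on both lists: in log2(FPKM + 1), the median difference of S-phase genes from the ESC control was -3.69 in replicate 1 and -0.81 in replicate 2, and that of G2 and mitosis genes was -5.05 in replicate 1 and -0.72 in replicate 2. Of the 15 genes with the largest differences in that direction, 9 were in the cycling lists, and of the 1280 genes 79 were; of the 940 genes higher in replicate 1, 0 were.

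Among the mitotic genes, Top2a, the topoisomerase that untangles sister chromatids, was at 2.08 FPKM in replicate 1 and 120 FPKM in replicate 2, a ratio of 57.7 (95% counting interval 51.9 to 64.4). Mki67 was 67.7 times lower in replicate 1 (61.2 to 75.1). Cdk1, the kinase that drives entry into mitosis, was at 1.35 FPKM in replicate 1 and 64.4 FPKM in replicate 2, and its partner cyclin Ccna2 was at 2.86 and 123 FPKM. The mitotic kinase Aurkb was at 0.351 FPKM in replicate 1 and 34.7 FPKM in replicate 2. The anaphase-promoting ubiquitin conjugase Ube2c was at 1.72 FPKM in replicate 1 and 86.2 FPKM in replicate 2, and Birc5, a subunit of the chromosomal passenger complex, was at 1.25 and 56.0 FPKM. Pbk, a mitotic kinase that was in neither list, was at 0.665 FPKM in replicate 1 and 57.6 FPKM in replicate 2. These genes were all near the floor of 1 FPKM in replicate 1 and among the better expressed genes of replicate 2. The exception was Cdc25b, a phosphatase that activates cyclin-dependent kinases, at 9.22 FPKM in replicate 1 and 19 FPKM in replicate 2.

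The S-phase genes differed less, and not equally. Rrm2, the cell cycle-bound subunit of ribonucleotide reductase, was at 0.961 FPKM in replicate 1 and 70.6 FPKM in replicate 2, a ratio of 73.4 (57.7 to 95). Tk1, thymidine kinase, was at 0.137 FPKM in replicate 1 and 15.0 FPKM in replicate 2, and rested on 6 reads in replicate 1. The replicative helicase subunits spanned a wide range, from Mcm6 at 1.94 FPKM in replicate 1 and 49.8 FPKM in replicate 2 to Mcm7 at 13.9 and 32.7 FPKM. Pcna, the sliding clamp of the polymerases, was at 6.61 FPKM in replicate 1 and 38.4 FPKM in replicate 2. Every measured S-phase gene was thus lower in replicate 1, by a difference of between -5.19 and -1.18.

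Because so many genes of these lists differed together, promoters are shown here for 3 of the mitotic genes and 1 S-phase gene just described, with the motif that each gene class is known for. The sequences are RefSeq promoters of build GRCm38.p6, from 250 bases before to 50 bases after the annotated start, on the strand of the gene. In Top2a (chr11:99024140-99024439, minus strand), Mki67 (chr7:135716330-135716629, minus strand) and Cdk1 (chr10:69352863-69353162, minus strand), capitals mark the cell cycle homology region (CHR, TTTGAA or TTCGAA) and the CCAAT box (CCAAT), read on both strands. In Mcm6 (chr1:128359656-128359955, minus strand), capitals mark E2F motifs (TTTCCCGC, TTTGGCGC, TTTCGCGC or TTTGCCGC), and capitals that run on are overlapping matches on opposite strands.
Top2a: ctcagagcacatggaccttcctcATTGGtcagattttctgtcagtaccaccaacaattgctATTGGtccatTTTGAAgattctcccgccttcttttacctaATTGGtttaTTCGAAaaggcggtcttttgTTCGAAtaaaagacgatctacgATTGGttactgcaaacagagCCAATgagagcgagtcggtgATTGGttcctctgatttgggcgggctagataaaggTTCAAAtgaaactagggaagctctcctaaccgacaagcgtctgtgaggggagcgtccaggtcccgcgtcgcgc
Mki67: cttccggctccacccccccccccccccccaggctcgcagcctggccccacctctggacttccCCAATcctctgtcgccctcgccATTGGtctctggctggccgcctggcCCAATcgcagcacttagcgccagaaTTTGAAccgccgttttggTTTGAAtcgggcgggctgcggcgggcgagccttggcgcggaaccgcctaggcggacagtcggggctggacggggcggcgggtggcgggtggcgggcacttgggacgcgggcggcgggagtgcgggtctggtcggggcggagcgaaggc
Cdk1: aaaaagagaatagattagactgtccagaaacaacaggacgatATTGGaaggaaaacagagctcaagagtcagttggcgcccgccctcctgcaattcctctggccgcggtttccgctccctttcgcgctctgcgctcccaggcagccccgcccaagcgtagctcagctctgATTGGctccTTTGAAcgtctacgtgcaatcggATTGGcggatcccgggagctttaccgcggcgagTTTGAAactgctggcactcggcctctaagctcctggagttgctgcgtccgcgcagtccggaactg
Mcm6: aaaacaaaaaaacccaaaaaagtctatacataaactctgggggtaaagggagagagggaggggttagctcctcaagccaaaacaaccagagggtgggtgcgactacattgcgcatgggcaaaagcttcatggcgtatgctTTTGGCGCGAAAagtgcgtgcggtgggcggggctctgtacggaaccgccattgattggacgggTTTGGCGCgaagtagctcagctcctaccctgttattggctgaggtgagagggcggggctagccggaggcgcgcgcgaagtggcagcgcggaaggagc

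Top2a held 4 CHR and 6 CCAAT matches in this window, Mki67 held 2 and 3, Cdk1 held 2 and 3, and Mcm6 held 3 E2F matches. Promoters were available for 8752 of the 11712 genes. Among the G2 and mitosis genes, 27 of 34 promoters held a CHR (79.4%) and 27 of 34 a CCAAT box (79.4%), against 15.5% and 43.9% of all promoters. Among the S-phase genes, 15 of 32 held an E2F motif (46.9%), against 4.98% of all, and 6 of 32 held a CHR (18.8%). Over the whole comparison, the CHR was in 12.7% of promoters of genes at least 2-fold higher in replicate 1 and in 25.7% of those at least 2-fold higher in replicate 2. The E2F motif was in 2.42% of promoters of genes higher in replicate 1 and in 9.84% of those higher in replicate 2. No CHR and CCAAT matches overlapped in the promoters printed, TTCGAA reads the same on both strands and was counted once, and a match is a description of letters, not a measured binding site.

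The genes that gate entry into the cell cycle did not differ as a block: of 16 tested, 2 were at least 2-fold higher in replicate 1 and 6 at least 2-fold higher in replicate 2, with a median of -0.37. The D-type cyclins, which link growth factor signals to the cycle, carried the largest differences. Ccnd1 was at 10.6 FPKM in replicate 1 and 131 FPKM in replicate 2, and Ccnd2 was at 15.0 and 163 FPKM, while Ccnd3 was at 14.4 and 19.3 FPKM. Myc, a growth-promoting transcription factor, was at 7.23 FPKM in replicate 1 and 29.6 FPKM in replicate 2. The kinase Cdk4 itself, at 236 FPKM in replicate 1 and 301 FPKM in replicate 2, differed little. Among inhibitors of these kinases the directions were mixed. Cdkn2a, which encodes p16 and p19ARF from 1 locus, was at 14.8 FPKM in replicate 1 and 2.59 FPKM in replicate 2. With 1 transcript per gene symbol, these values do not tell p16 from p19ARF. Cdkn1a, the p53 target p21, was at 25.7 FPKM in replicate 1 and 57.6 FPKM in replicate 2, and Cdkn1b was at 82.1 and 65.3 FPKM.

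Feedback and receptor genes of FGF and EGF signalling differed in both directions, with a median of -0.59. Of 21 tested, 2 were at least 2-fold higher in replicate 1 and 6 in replicate 2, beside 8.03% and 10.9% of all genes. Spry4, an inhibitor of receptor tyrosine kinase signalling, was at 3.86 FPKM in replicate 1 and 38.2 FPKM in replicate 2. Etv5, an ETS factor induced by FGF, was at 29.1 FPKM in replicate 1 and 75.0 FPKM in replicate 2, and the ERK phosphatase Dusp6 was at 27.2 and 67.3 FPKM. Il17rd (Sef), another feedback inhibitor, was at 54.7 FPKM in replicate 1 and 20.2 FPKM in replicate 2. Fgfr3, a receptor that is also in the astrocyte list, was at 35.7 FPKM in replicate 1 and 8.15 FPKM in replicate 2. The EGF receptor Egfr was at 59.6 FPKM in replicate 1 and 37.8 FPKM in replicate 2, within 2-fold. Immediate early genes were mixed, with 3 of 18 past 2-fold in each direction and a median of 0.27. Fos was at 747 FPKM in replicate 1 and 321 FPKM in replicate 2, and Junb at 51.3 and 3.57 FPKM, whereas Ier3 was at 0.544 and 4.74 FPKM.

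The mature glial programme ran the other way. Of 27 astrocyte genes tested, 14 were at least 2-fold higher in replicate 1 and 0 at least 2-fold higher in replicate 2, with a median difference of 1.06. Over all genes, 8.03% were that much higher in replicate 1. Gfap, the intermediate filament that defines astrocytes, was at 173 FPKM in replicate 1 and 0.563 FPKM in replicate 2, a ratio of 306.8 (95% counting interval 222.4 to 435.8). The ESC control held Gfap at 0.073 FPKM. Gfap was high in replicate 1 and low in replicate 2 and in ESC, with 15038 reads in replicate 1 against 37 in replicate 2. Apoe, the main lipid carrier secreted by astrocytes, was at 1492 FPKM in replicate 1 and 89.5 FPKM in replicate 2, and at 741 FPKM in the ESC control. Cst3, a secreted protease inhibitor and one of the most abundant astrocyte transcripts, was at 2548 FPKM in replicate 1 and 302 FPKM in replicate 2.

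Other astrocyte genes in the same direction were the aldolase Aldoc at 1564 FPKM in replicate 1 and 287 FPKM in replicate 2, the angiotensin precursor Agt at 25.4 and 0.855 FPKM, and the water channel Aqp4 at 57.2 and 11.8 FPKM. The glutamate transporter Slc1a2 was at 84.9 FPKM in replicate 1 and 24.4 FPKM in replicate 2. Not all astrocyte genes took part. The glutamine synthetase Glul was at 111 FPKM in replicate 1 and 93.0 FPKM in replicate 2, the folate enzyme Aldh1l1 at 6.53 and 5.16 FPKM, the gap junction protein Gja1 at 25.0 and 38.1 FPKM, and the gliogenic factor Nfib at 66.3 and 66.0 FPKM. Summed over the list, astrocyte genes came to 7890 FPKM in replicate 1, 1670 FPKM in replicate 2 and 1060 FPKM in the ESC control, where Apoe made up most of the sum.

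Some of the 15 largest differences in that direction, among them C4b, Mt2, Mfap4 and Neat1, were of genes in no cell type list. C4b, a complement component, was at 14.2 FPKM in replicate 1 and 0.062 FPKM in replicate 2, which rested on 8 reads. The metallothionein Mt2 was at 426 FPKM in replicate 1 and 5.46 FPKM in replicate 2, and at 670 FPKM in the ESC control. Its neighbour Mt1 was at 13.1 FPKM in replicate 1 and 17.0 FPKM in replicate 2. Mt3, the brain form and a member of the radial glia list, was at 157 and 28.1 FPKM. Mfap4, a matrix protein, was at 148 FPKM in replicate 1 and 11.1 FPKM in replicate 2, and the nuclear noncoding RNA Neat1 at 76.4 and 7.04 FPKM. Metallothionein genes are short and alike, so their FPKM may be split between copies. A list of STAT3 targets, put together after these values had been seen, held Gfap, Socs3, Junb and Serpina3n. Of its 11 tested members, 8 were at least 2-fold higher in replicate 1 and 0 in replicate 2, beside 8.03% and 10.9% of all genes. Since the members were chosen with values known, this count is no sign of STAT3 activity, which was not tested. Socs3, the feedback inhibitor of this pathway, was at 40.1 FPKM in replicate 1 and 3.50 FPKM in replicate 2, and Stat3 itself at 75.3 and 36.6 FPKM.

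**Figure D2:**
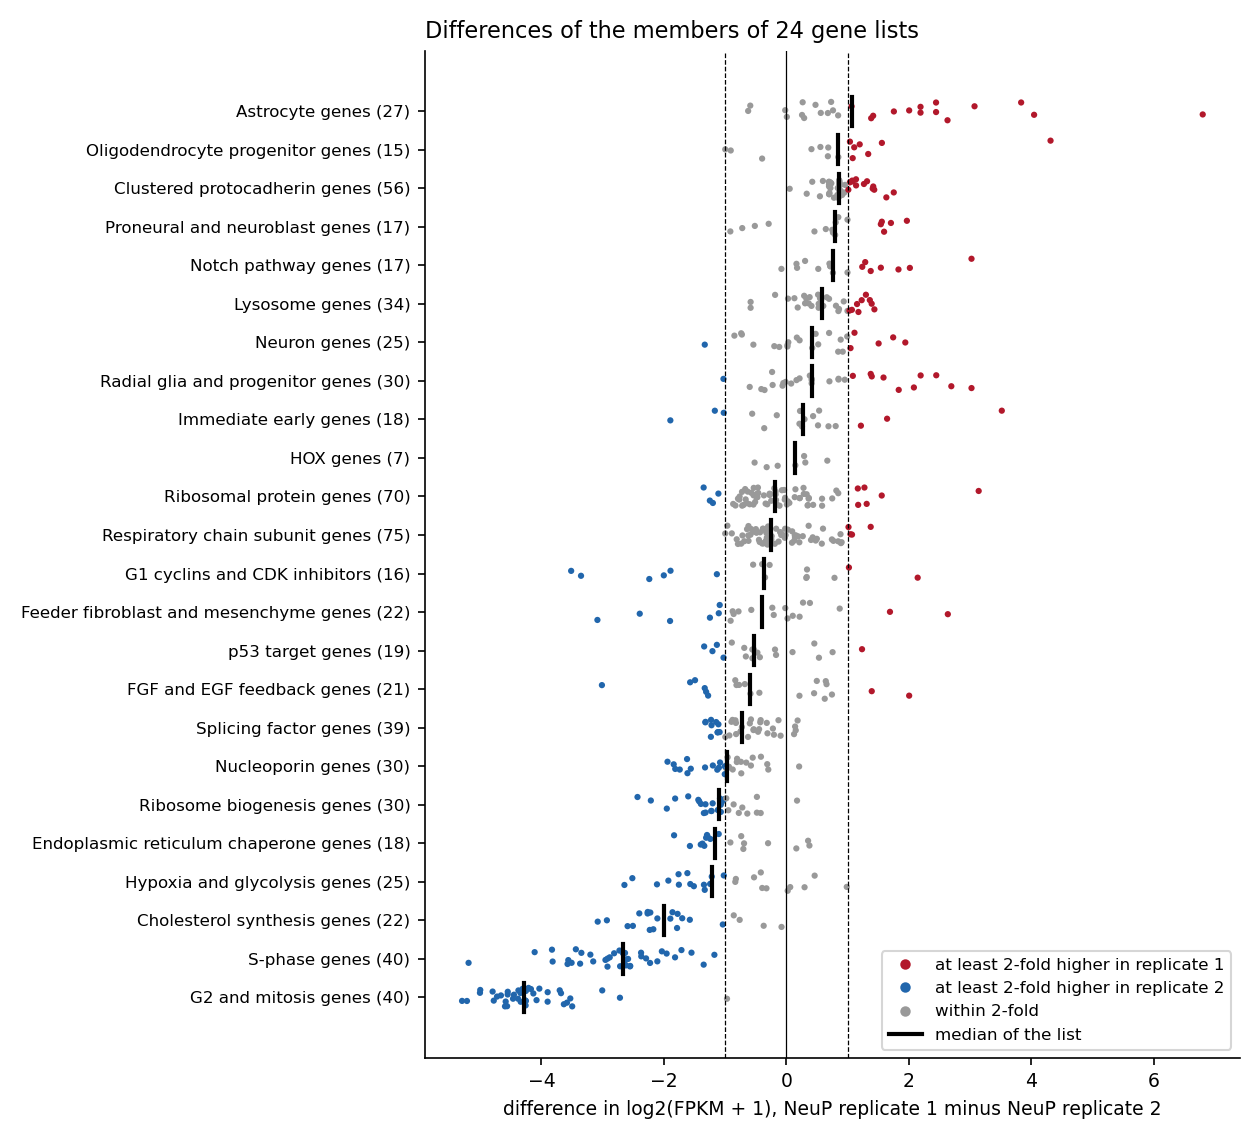
Differences in log2(FPKM + 1), replicate 1 minus replicate 2 (x axis), for the members of 24 gene lists with at least 1 FPKM in either NeuP library (number in brackets). Points are genes and black bars are list medians, which run from 1.06 for astrocyte genes to -4.28 for G2 and mitosis genes, beside -0.10 for all genes.

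Radial glia and progenitor genes were shared between the libraries in large part. Of 30 tested, 10 were at least 2-fold higher in replicate 1, 1 was at least 2-fold higher in replicate 2, and 19 lay within 2-fold, with a median of 0.41. Fabp7, a lipid-binding marker of radial glia, was the most abundant of them at 2454 FPKM in replicate 1 and 3143 FPKM in replicate 2, and was listed at 0 in the ESC control. Nes, the progenitor intermediate filament nestin, was at 60.3 FPKM in replicate 1 and 124 FPKM in replicate 2, and was the 1 member past 2-fold in that direction. Tnc and Ptprz1, a matrix protein and a receptor phosphatase of radial glia, were within 2-fold. On the other side were transcription factors and stem cell genes. Hes5 was at 84.5 FPKM in replicate 1, 9.52 FPKM in replicate 2 and listed at 0 in the ESC control. Hopx, a marker of outer radial glia and quiescent stem cells, was at 9.58 FPKM in replicate 1 and 0.637 FPKM in replicate 2, Prom1 at 30.0 and 5.79 FPKM, and the gliogenic factor Sox9 at 29.9 and 7.66 FPKM. Pax6 was at 29.0 FPKM in replicate 1 and 10.4 FPKM in replicate 2.

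The Notch pathway, to which Hes5 belongs as a direct target, was higher in replicate 1 across its parts. Of 17 genes tested, 7 were at least 2-fold higher in replicate 1 and 0 in replicate 2, beside 8.03% and 10.9% of all genes. By any amount, 16 were higher in replicate 1, and the median was 0.76. Of the receptors, Notch1 was at 63.7 FPKM in replicate 1 and 23.9 FPKM in replicate 2, and Notch2 was at 33.8 and 8.79 FPKM. Of the ligands, Dll1 was at 62.1 FPKM in replicate 1 and 30.6 FPKM in replicate 2, just inside 2-fold at 1.00, and Dll3 was at 34.6 and 11.2 FPKM. The targets were not alike: Hey2 was at 7.26 FPKM in replicate 1 and 1.04 FPKM in replicate 2, whereas Hey1 was at 40.4 and 32.5 FPKM, Hes1 at 23.2 and 13.9 FPKM, and Nrarp at 17.6 and 18.6 FPKM. The promoter of Hes5 (chr4:154960673-154960972, plus strand), shown because it carries the letters through which the Notch effector RBPJ is known to act, held 2 matches to GTGGGAA (either strand, in capitals). This motif was in 7.23% of all promoters, in 3 of 13 Notch pathway promoters (23.1%), in 8.16% of promoters of genes higher in replicate 1 and in 6.81% of those higher in replicate 2.
Hes5: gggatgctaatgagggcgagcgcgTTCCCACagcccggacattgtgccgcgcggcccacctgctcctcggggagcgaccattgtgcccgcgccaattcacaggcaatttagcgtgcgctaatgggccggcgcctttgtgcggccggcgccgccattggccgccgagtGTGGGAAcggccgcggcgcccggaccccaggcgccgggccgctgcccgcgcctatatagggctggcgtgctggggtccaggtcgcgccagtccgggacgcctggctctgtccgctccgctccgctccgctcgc

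Targets of BMP signalling gave a mixed picture, with 2 of 7 at least 2-fold higher in replicate 1 and 1 in replicate 2, and a median of 0.68. Id3 and Id4, inhibitors of neurogenic bHLH factors, were at 197 and 21.7 FPKM in replicate 1, and at 35.4 and 3.41 FPKM in replicate 2. Id1 was at 37.7 FPKM in replicate 1 and 29.0 FPKM in replicate 2, and Chrdl1, a BMP antagonist, at 1.57 and 6.42 FPKM. Of 10 WNT targets, 1 was at least 2-fold higher in replicate 1 and 2 in replicate 2, with a median of 0.08. The BMP and WNT counts are of few genes, beside 8.03% and 10.9% of all genes. Axin2, the general reporter of WNT activity, was at 19.7 FPKM in replicate 1 and 15.3 FPKM in replicate 2.

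**Figure D3:**
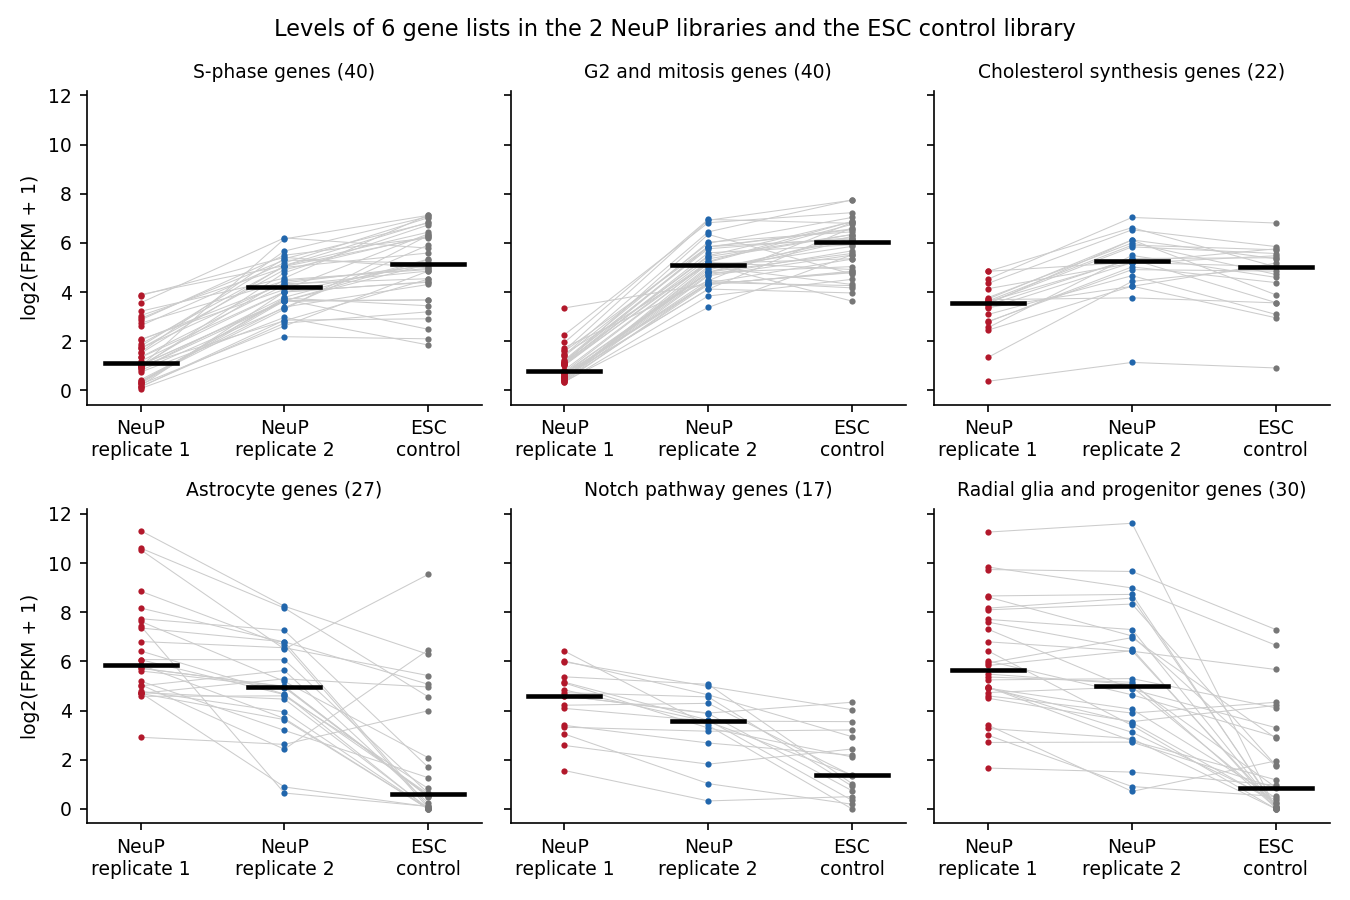
Levels, as log2(FPKM + 1), of the members of 6 gene lists in NeuP replicate 1, NeuP replicate 2 and the ESC control library. Points are genes, grey lines join 1 gene across libraries and black bars are medians. Cycling and cholesterol genes in replicate 2 sit near the ESC control, while the medians of astrocyte, Notch and radial glia genes in both NeuP libraries sit above it.

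Oligodendrocyte progenitor genes were well expressed in both libraries. Of 15 tested, 7 were at least 2-fold higher in replicate 1 and 0 in replicate 2, with a median of 0.85. Olig2, the master regulator of this lineage, was at 201 FPKM in replicate 1 and 265 FPKM in replicate 2. Olig1 was at 288 FPKM in replicate 1 and 140 FPKM in replicate 2, and Bcan, a brain matrix proteoglycan, at 448 and 177 FPKM. The largest difference was that of C1ql1, a secreted synaptic protein, at 50.5 FPKM in replicate 1 and 1.59 FPKM in replicate 2. The growth factor receptor Pdgfra was low in both, at 6.20 FPKM in replicate 1 and 4.42 FPKM in replicate 2, and Cspg4 (NG2) was at 1.84 and 4.68 FPKM. Sox10, which defines committed cells of the lineage, was under 1 FPKM in both. Of 17 myelin genes 4 were tested. Cnp was at 32.3 FPKM in replicate 1 and 12.9 FPKM in replicate 2, while Mbp was under 1 FPKM in both and Mag, Mobp and Mog were listed at 0 in both.

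Proneural and neuronal genes were higher in replicate 1 for some members, and several defining genes of mature neurons were under 1 FPKM in both libraries. Of 17 proneural and neuroblast genes tested, 5 were at least 2-fold higher in replicate 1 and 0 in replicate 2, with a median of 0.80. Sox4, a transcription factor of newborn neurons, was at 138 FPKM in replicate 1 and 46.2 FPKM in replicate 2. Dcx, the microtubule protein of migrating neuroblasts, was at 5.21 FPKM in replicate 1 and 9.23 FPKM in replicate 2. Of 25 neuron genes tested, 5 were at least 2-fold higher in replicate 1 and 1 in replicate 2, with a median of 0.42. Tubb3 was at 13.1 FPKM in replicate 1 and 3.33 FPKM in replicate 2, and the axonal microtubule protein Mapt at 39.1 and 9.44 FPKM. Gap43, a growth cone protein, was at 10.2 FPKM in replicate 1 and 27.2 FPKM in replicate 2. Rbfox3 (NeuN), Nefl and Stmn2 were among the defining genes under 1 FPKM in both libraries, and Snap25, of the synaptic vesicle machinery, was at 0.501 FPKM in replicate 1 and 1.49 FPKM in replicate 2. Of 28 genes of transmitter identity 3 were tested; Gad1, which makes GABA, was at 4.50 FPKM in replicate 1 and 0.911 FPKM in replicate 2, and Slc17a6 was listed at 0 in both.

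All 56 tested clustered protocadherins were higher in replicate 1, 13 of them at least 2-fold, with a median of 0.86, but these genes share exons and their values are not independent: Pcdha1 and Pcdha6, which differ only in the first exon, were at 6.18 and 6.19 FPKM in replicate 1 and at 3.43 and 3.44 FPKM in replicate 2. The beta cluster has single-exon genes, and Pcdhb2 was at 9.43 FPKM in replicate 1 and 2.10 FPKM in replicate 2. Of 43 axon guidance genes, 6 were at least 2-fold higher in replicate 1 and 2 in replicate 2, which in total is near the 19% of all genes past 2-fold. The semaphorin receptor Nrp2 was at 16.1 FPKM in replicate 1 and 2.45 FPKM in replicate 2. Among 18 glutamate and GABA receptor genes the count was 3 in each direction, against 8.03% higher in replicate 1 and 10.9% higher in replicate 2 over all genes. Gabbr2, a subunit of the GABA-B receptor, was at 17.0 FPKM in replicate 1 and 2.10 FPKM in replicate 2, and the glutamate receptor Grm5 at 3.72 and 15.8 FPKM.

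Regional factors were mostly within 2-fold of each other. Forebrain genes were few: of 24, 5 were tested, and Otx2, Emx1 and Six6 were listed at 0 in both libraries. Within that list Emx2 was at 2.81 FPKM in replicate 1 and 0.493 FPKM in replicate 2, and the signal Wnt7b at 21.5 and 3.63 FPKM. The midbrain-hindbrain factors En1 and En2 were at 5.57 and 8.33 FPKM in replicate 1, and at 7.06 and 8.15 FPKM in replicate 2. Irx1, the other of the 3 midbrain genes tested, was past 2-fold, at 7.17 FPKM in replicate 1 and 1.88 FPKM in replicate 2. Of 10 hindbrain genes tested 2 were at least 2-fold higher in replicate 1 and 0 in replicate 2: Cyp26b1, a retinoic acid-degrading enzyme, at 16.0 FPKM in replicate 1 and 3.69 FPKM in replicate 2, and the guidance receptor Epha4, at 31.9 and 11.4 FPKM. Egr2 (Krox20), which marks hindbrain segments but is also an immediate early gene, was at 26.4 FPKM in replicate 1 and 22 FPKM in replicate 2.

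Of 39 HOX genes 7 were tested, with a median of 0.15. Of these 7, 0 were past 2-fold in either direction, beside 8.03% and 10.9% of all genes. They belonged to the anterior groups. Hoxa2, whose domain reaches furthest forward in the hindbrain, was the highest at 23.1 FPKM in replicate 1 and 20.8 FPKM in replicate 2. Hoxa3 was at 9.18 FPKM in replicate 1 and 5.41 FPKM in replicate 2, and Hoxa5 at 7.16 and 5.67 FPKM. Hoxb2 was at 1.38 FPKM in replicate 1 and 2.41 FPKM in replicate 2.

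Along the dorsal and ventral axis some genes differed. Of 6 dorsal genes tested, 1 was at least 2-fold higher in each library. Of 4 ventral genes tested, 3 were at least 2-fold higher in replicate 1 and 0 in replicate 2. Pax3, a dorsal factor, was at 11.4 FPKM in replicate 1 and 13.6 FPKM in replicate 2. Its paralogue Pax7 was at 1.6 FPKM in replicate 1 and 0.058 FPKM in replicate 2, from 220 reads in replicate 1 against 6 in replicate 2. The dorsal signal Bmp7 was at 0.297 FPKM in replicate 1 and 3.13 FPKM in replicate 2. Of the ventral genes, Spon1, a floor plate protein, was at 70.0 FPKM in replicate 1 and 16.6 FPKM in replicate 2. Ptch1, receptor and target of Sonic hedgehog, was at 40.2 FPKM in replicate 1 and 11.3 FPKM in replicate 2, and Foxj1, a ciliogenesis factor, at 5.06 and 0.865 FPKM. The hedgehog target Gli1 and the ligand Shh were under 1 FPKM in both libraries, and the ventral factor Nkx6-1 was listed at 0 in both.

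**Figure D4:**
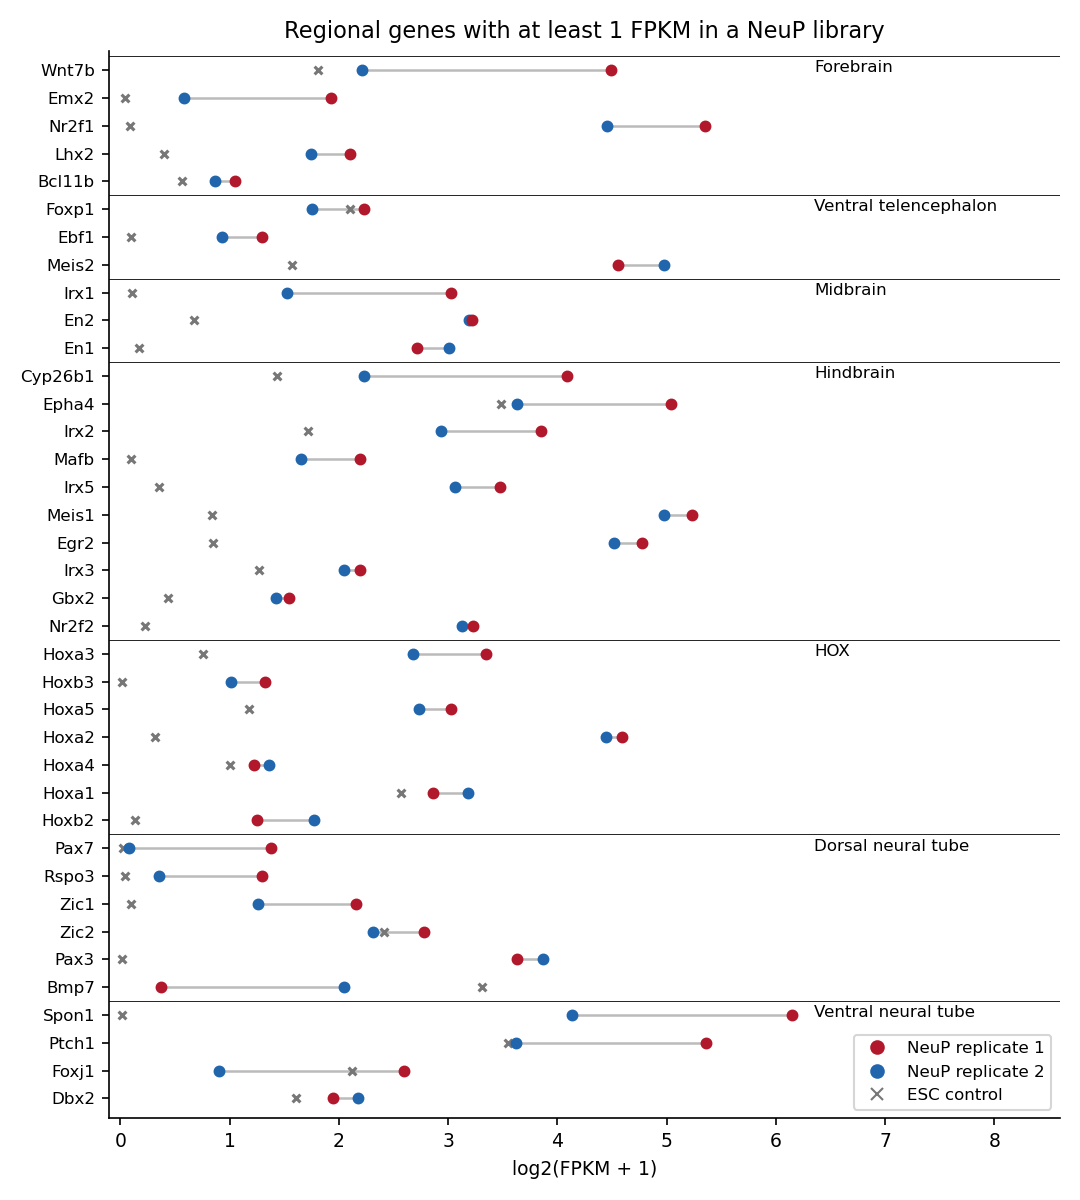
Levels, as log2(FPKM + 1), of regional genes with at least 1 FPKM in either NeuP library, for replicate 1 (red), replicate 2 (blue) and the ESC control (grey cross), grouped by list. HOX genes and En1, En2 and Pax3 lie close together, while Wnt7b, Spon1, Ptch1, Cyp26b1, Foxj1 and Bmp7 lie furthest apart.

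Genes of growth metabolism were lower in replicate 1 as well. All 22 tested genes of cholesterol synthesis and uptake were lower in replicate 1, 18 of them at least 2-fold, with a median difference of -2.0. Msmo1, a sterol oxidase, was at 22.1 FPKM in replicate 1 and 130 FPKM in replicate 2, and Cyp51, the lanosterol demethylase, at 12.2 and 68.5 FPKM. Fdps, which makes farnesyl pyrophosphate, was at 4.89 FPKM in replicate 1 and 43.9 FPKM in replicate 2. Srebf2, the transcription factor that drives these genes, was at 27.7 FPKM in replicate 1 and 36.1 FPKM in replicate 2, within 2-fold. Hmgcs1 was listed at 0 in all 5 RNA libraries, which may be a failed estimate and is not read as absence. Some LXR target genes, which respond to sterols, were higher in replicate 1. The cholesterol exporter Abca1 was at 63.5 FPKM in replicate 1 and 4.37 FPKM in replicate 2, Apoc1, an apolipoprotein, at 33.8 and 1.64 FPKM, and the transcription factor Srebf1 at 59.4 and 18.3 FPKM. In the other direction the desaturase Scd1 was at 61.1 FPKM in replicate 1 and 93.5 FPKM in replicate 2, and the lipase Lpl at 0.585 and 1.84 FPKM. The list was chosen after the values had been seen. Of its 10 tested members, 4 were at least 2-fold higher in replicate 1 and 0 in replicate 2, 4 were lower in replicate 1 by any amount, and the median was 0.39.

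The promoter of Nsdhl (chrX:72918271-72918570, plus strand), a sterol enzyme at 10.5 FPKM in replicate 1 and 68.5 FPKM in replicate 2, is shown for its 4 CCAAT boxes (either strand, in capitals), since the CCAAT-binding factor NF-Y is known to act with SREBP on such genes. A CCAAT box was in 14 of 15 promoters of the cholesterol list (93.3%), against 43.9% of all promoters. The sterol response letters TCACNCCAC were in 0 of 15, and in 1.37% of all, and the lack of a match says only that these letters are not in this window.
Nsdhl: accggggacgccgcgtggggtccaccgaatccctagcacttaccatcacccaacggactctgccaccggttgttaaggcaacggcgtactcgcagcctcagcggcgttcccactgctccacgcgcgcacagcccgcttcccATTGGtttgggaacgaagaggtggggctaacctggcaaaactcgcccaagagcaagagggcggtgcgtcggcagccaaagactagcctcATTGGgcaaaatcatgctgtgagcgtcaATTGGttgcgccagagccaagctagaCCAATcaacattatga

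Glycolysis, protein folding and ribosome production lay in the same direction. Of 25 hypoxia and glycolysis genes, 0 were at least 2-fold higher in replicate 1 and 14 at least 2-fold higher in replicate 2, with a median of -1.22. Ldha, lactate dehydrogenase, was at 37.8 FPKM in replicate 1 and 221 FPKM in replicate 2. Hk2, the hexokinase of growing cells, was at 0.759 FPKM in replicate 1 and 10.0 FPKM in replicate 2, whereas Hk1 was at 23.5 and 16.8 FPKM. Of 18 chaperones of the endoplasmic reticulum, 0 were at least 2-fold higher in replicate 1 and 10 at least 2-fold higher in replicate 2, with a median of -1.17; Hspa5 (BiP) was at 123 FPKM in replicate 1 and 320 FPKM in replicate 2. Of 30 ribosome biogenesis genes, a list chosen after values had been seen, 0 were at least 2-fold higher in replicate 1 and 20 at least 2-fold higher in replicate 2, with a median of -1.10, and the nucleolar protein Nop58 was at 18.4 FPKM in replicate 1 and 74.0 FPKM in replicate 2.

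Ribosomal protein genes themselves did not differ as a block, with a median of -0.19. Of 70 tested, 6 were at least 2-fold higher in replicate 1 and 4 in replicate 2, beside 8.03% and 10.9% of all genes. Values of ribosomal protein genes are uncertain because of processed pseudogenes. The largest difference, that of Rplp1 at 209 FPKM in replicate 1 and 22.9 FPKM in replicate 2, went against most others. Respiratory chain genes were within 2-fold for 71 of 75. Lysosome genes, chosen after values had been seen, were higher in replicate 1: of 34 tested, 9 were at least 2-fold higher in replicate 1 and 0 in replicate 2, with a median of 0.59, and Ctsd, a lysosomal protease, was at 216 FPKM in replicate 1 and 95.2 FPKM in replicate 2. Stress genes were past 2-fold in both directions. Of 25 genes of the integrated stress response, 1 was at least 2-fold higher in replicate 1 and 4 in replicate 2, with a median of -0.10, equal to that of all genes. Of 19 p53 targets the counts were 1 and 4, with a median of -0.53, beside 8.03% and 10.9% of all genes, and 14 of the 19 were lower in replicate 1 by any amount.

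Nup153, the subject of the study, was at 12.8 FPKM in replicate 1, 29.1 FPKM in replicate 2 and 39.4 FPKM in the ESC control. This difference between replicates, -1.13, was set among those of the pore as a whole: of 30 nucleoporin genes, 29 were lower in replicate 1, 14 of them at least 2-fold, with a median of -0.97. Nup205, a scaffold subunit, was at 9.82 FPKM in replicate 1 and 40.5 FPKM in replicate 2. Nup214, of the cytoplasmic side, was the exception, at 7.78 and 6.61 FPKM. The hairpin libraries of ESC held Nup153 at 20.9 FPKM (hairpin #2) and 17.4 FPKM (hairpin #4), between the NeuP libraries in level.

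Polycomb subunit genes were mostly close, with 1 of 30 at least 2-fold higher in replicate 1 and 5 at least 2-fold higher in replicate 2, and a median of -0.25. These counts stand beside 8.03% and 10.9% of all genes, and in total are near the 19% of all genes past 2-fold. The 5 genes higher in replicate 2 included core genes of the methylating complex PRC2. Its enzyme Ezh2 was at 28.4 FPKM in replicate 1 and 79.6 FPKM in replicate 2, Eed at 8.89 and 21.3 FPKM, and Suz12 at 19.2 and 40.5 FPKM. Ezh1, the enzyme known from non-dividing cells, was the member at least 2-fold higher in replicate 1, at 6.28 FPKM against 2.40 FPKM in replicate 2. Rnf2, which encodes the Ring1B protein mapped by ChIP in this study, was at 30.7 FPKM in replicate 1 and 38.4 FPKM in replicate 2.

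A list of 14556 Ring1B peaks in NeuP was deposited from 1 ChIP library, and the labels do not say which culture it came from. A peak lay within 2 kb of the transcript start for 1977 of the 11712 genes (16.9%). Among genes at least 2-fold higher in replicate 1 the share was 25.5% (240 of 940), among those at least 2-fold higher in replicate 2 it was 15.9% (203 of 1280), and among those within 2-fold it was 16.2% (1534 of 9492). By list, a peak was at 12 of 17 Notch pathway genes (70.6%), 15 of 27 astrocyte genes (55.6%) and 15 of 30 radial glia genes (50.0%), against 4 of 40 G2 and mitosis genes (10.0%). The share did not follow the direction of the difference from list to list. It was 57.1% for FGF and EGF feedback genes, of which 9 were higher and 12 lower in replicate 1 by any amount. It was 25.0% for S-phase genes, all lower in replicate 1, and 3.57% for clustered protocadherins, all higher in replicate 1. The genes with a peak included Gfap, Apoe and Hes5. Genes higher in replicate 1 were also more often silent in ESC: 35.5% were under 1 FPKM in the ESC control, against 9.3% of genes higher in replicate 2 and 13.3% of genes within 2-fold.

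**Figure D5:**
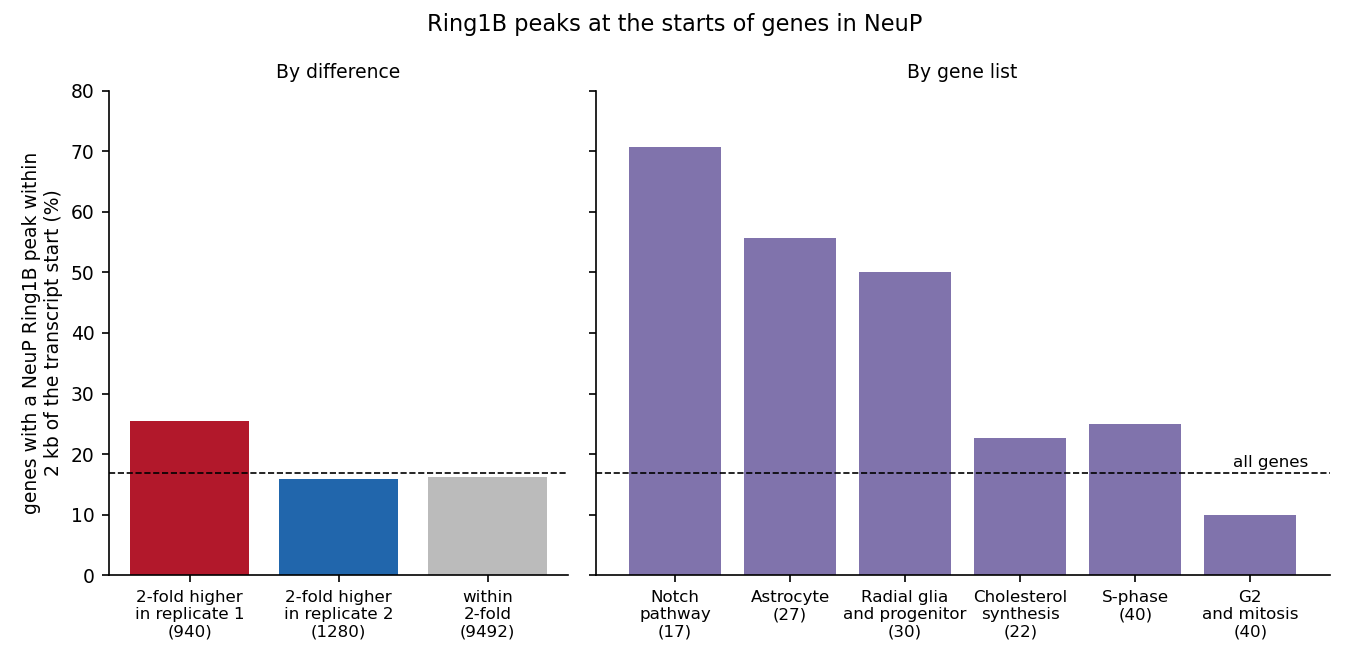
Share of genes with a NeuP Ring1B peak within 2 kb of the transcript start (percent, y axis), by difference between the NeuP libraries (left) and by gene list (right), with the number of genes in brackets. The dashed line is the share of all genes, 16.9%, and the bar of genes higher in replicate 1 stands at 25.5%.

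Markers of other cell types were low in both libraries. Of 27 pluripotency genes 3 were tested, 0 of them past 2-fold, and the list summed to 10.4 FPKM in replicate 1, 9.86 FPKM in replicate 2 and 2310 FPKM in the ESC control. The summed level of 15 microglia genes was 1.73 FPKM in replicate 1 and 3.43 FPKM in replicate 2, with 9 of them at 0 in both, among them Aif1, Cx3cr1 and Trem2, and with P2ry12 at 0.16 FPKM in replicate 1 and 1.52 FPKM in replicate 2. For 20 endothelial and blood genes it was 2.53 FPKM in replicate 1 and 3.67 FPKM in replicate 2, with 6 at 0 in both. For 19 mesoderm and muscle genes it was 4.26 and 9.12 FPKM. Ependymal and choroid plexus genes summed to 34.7 FPKM in replicate 1 and 21.7 FPKM in replicate 2, most of it from Rfx4, which neural progenitors also express.

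Mesenchymal genes had the highest summed level among these groups. None of the 30 members of the fibroblast list was at 0 in both libraries. Of its 22 tested members, 2 were at least 2-fold higher in replicate 1 and 6 at least 2-fold higher in replicate 2, beside 8.03% and 10.9% of all genes, with a median of -0.40. Dcn, a fibroblast proteoglycan, was at 0.331 FPKM in replicate 1 and 10.3 FPKM in replicate 2, Postn at 3.60 and 23.2 FPKM, and Col3a1, a defining collagen, at 24.9 and 46.1 FPKM. Col1a1 was low at 0.375 FPKM in replicate 1 and 1.53 FPKM in replicate 2, and Col1a2 was under 1 FPKM in both. The summed level of the list, 1010 FPKM in replicate 1 and 603 FPKM in replicate 2, was made up largely of Sparc, Lgals1 and Timp3, which glia also express. The part of mesenchymal cells in the results was not tested. Car3, a carbonic anhydrase of muscle and fat that was in no list, was at 0.041 FPKM in replicate 1 from 2 reads and 25.5 FPKM in replicate 2, a ratio of 622.1 with a counting interval of 171.7 to 5144.

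Imprinted genes and Xist also differed. Of 20 imprinted genes, 0 were at least 2-fold higher in replicate 1 and 8 at least 2-fold higher in replicate 2. Mest was at 130 FPKM in replicate 1 and 953 FPKM in replicate 2, the largest difference in FPKM itself among genes higher in replicate 2. H19 was at 0.143 FPKM in replicate 1 and 3.07 FPKM in replicate 2, and Meg3 and Rian, noncoding RNAs of 1 cluster, were at 0.065 and 0.061 FPKM in replicate 1, and at 2.04 and 1.85 FPKM in replicate 2. All 3 were above 70 FPKM in the ESC control. Xist, the RNA that silences 1 X chromosome of female cells, was at 16.4 FPKM in replicate 1, 113 FPKM in replicate 2 and 0.044 FPKM in the ESC control. The Y-linked genes summed to 0.004 FPKM in replicate 1, 0.008 FPKM in replicate 2 and 0.005 FPKM in the ESC control. These sums do not set the libraries apart and are not read as absence of a Y chromosome. The sex of the cells was not tested. The median difference of X-linked genes was -0.24, within the range of the autosomes, which ran from -0.28 for chromosome 6 to 0.06 for chromosome 15. The share of genes higher in replicate 1 was 32.4% on the X chromosome, below that of every autosome, of which the lowest was 35.6%.

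The median difference was -0.19 in the shortest of 6 bins of transcript length and 0.02 in the longest, and the share of genes past 2-fold was 22.7% in the shortest and 15.1% in the longest. By mean level the median ran from 0.03 in the lowest bin to -0.16 in the highest. The part of transcript length and of level in the results was not tested.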

How the data were processed

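RNA-seq was used for 5 libraries and Ring1B ChIP-seq peaks for 1 NeuP library. The authors deposited RNA levels as FPKM, with 1 transcript per gene symbol, and the peaks as positions. Per the submitters' processing notes the tools were CASAVA 1.8.2, STAR 2.2.0c, Bowtie2 2.1.0, HOMER 4.6 and edgeR, with build mm9; the notes do not tie tools to files. Per the file headers, the peaks came from HOMER in its histone style against an IgG library of ESC.

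From the deposited FPKM, the difference in log2(FPKM + 1) was computed with Python 3.11.15, numpy 2.4.6, pandas 2.3.3 and scipy 1.17.1. FPKM times length fell on whole multiples of 1 read for 100.0% of the low values, within 0.1 of a read, which gave each library's depth and the reads per gene. Intervals for ratios are exact (Clopper-Pearson, 95%) and cover counting error only. A gene was called 2-fold at a difference of 1 or -1. A peak counted for a gene within 2 kb of the transcript start, both on mm9, while promoters are of GRCm38.p6 and were matched by symbol. No test was run, since each side is 1 library.

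The genes compared and 49 gene lists were chosen with earlier results of these data known. A further 5 lists, the promoter motifs and the alternatives on short transcripts and without cycling genes were chosen after the values were seen. Genes are named where they are among the 15 largest differences or the 5 largest FPKM differences in a direction or the 6 largest of a list, or are regional factors or fixed markers. Some further members were named as exceptions or as defining genes of a list after their values were seen. Alternatives were a pseudocount of 0.1 or 5, other FPKM filters, quantile and median-ratio scaling, removal of the length trend, a 4-fold threshold and peak windows of 1 and 5 kb.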

Additional observations from a re-analysis of the deposited data

How the results depend on the processing

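No paired analysis was possible because the comparison is of 1 library with 1 library and no test was run, and leaving out a replicate leaves no difference. The pseudocount, the fold and the scaling set the counts: 380 genes were at least 2-fold higher in replicate 1 and 613 in replicate 2 with a pseudocount of 5, and 119 and 320 at 4-fold. Quantile scaling moved the median of all genes to 0.01, which is a shift of over 0.1, and gave 1126 genes higher in replicate 1 and 1073 in replicate 2, so that the share of calls higher in replicate 1 was 51.2% after it and 42.3% without it. Median-ratio scaling gave a median of -0.01 with 1083 and 1107 genes, and the median was 0.0 with no filter on low values. List medians kept their sign under all 9 alternatives for 35 of 54 lists. A further 13 came to 0 with no filter on low values and changed sign under none of those run, which were fewer than 9 for 3 lists. The medians of 6 lists changed sign: ventral telencephalon, midbrain, neural crest, integrated stress response, collagen, and laminin and integrin. Of 305 named genes, 3 changed sign, all on removal of the length trend. The Ring1B share of genes higher in replicate 1 was 21.9% within 1 kb, 33.7% within 5 kb and 28.6% at an FPKM of at least 5. That of genes higher in replicate 2 was 19.4% within 5 kb, and that of genes within 2-fold was 14.1% within 1 kb, 19.9% within 5 kb and 17.1% at an FPKM of at least 5. Genes near 1 FPKM, and those with few reads in 1 library such as Car3 and Pax7, are limited by depth.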

Other observations

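Several gene groups with no part in the comparisons above are given here as values. Their counts stand beside 8.03% of all genes at least 2-fold higher in replicate 1 and 10.9% in replicate 2. Splicing factor genes, chosen after values had been seen, had 0 of 39 members at least 2-fold higher in replicate 1 and 10 at least 2-fold higher in replicate 2, with a median of -0.73. Sf3b3, a subunit of the U2 particle, was at 22.7 FPKM in replicate 1 and 58.4 FPKM in replicate 2. Of 22 collagen genes, 6 were at least 2-fold higher in replicate 1 and 2 in replicate 2; the basement membrane chain Col4a5 was at 35.5 FPKM in replicate 1 and 6.39 FPKM in replicate 2, whereas Col4a2 was at 3.63 and 7.71 FPKM. Of 18 laminin and integrin genes the counts were 3 and 2, and the laminin receptor Itga7 was at 38.4 FPKM in replicate 1 and 13.0 FPKM in replicate 2. Of 26 potassium channel genes the counts were 6 and 3. Kcnn2, a calcium-activated channel, was at 38.6 FPKM in replicate 1 and 16.0 FPKM in replicate 2, and Kcnc1, a voltage-gated one, was at 6.18 and 15.4 FPKM. Of 12 interferon response and MHC genes 1 was past 2-fold, Ifit2, at 3.93 FPKM in replicate 1 and 1.27 FPKM in replicate 2.

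Histone genes, whose replication-dependent members lack a poly(A) tail, were listed at 0 in both libraries for 42 of 68 and tested for 6. The linker histone Hist1h1c was at 35.2 FPKM in replicate 1 and 2.91 FPKM in replicate 2, and Hist3h2a was at 9.54 and 1.47 FPKM. Both were higher in the library with the lower level of S-phase genes. Of 7 neural crest and Schwann cell genes tested, 2 were at least 2-fold higher in replicate 1 and 0 in replicate 2. The shares of all genes were 8.03% and 10.9%. Cdh19, a cadherin of Schwann cell precursors, was at 10.1 FPKM in replicate 1 and 3.10 FPKM in replicate 2. Of 20 endoderm genes 2 were tested, and Cxcr4, a chemokine receptor that neural cells also carry, was at 15.5 FPKM in replicate 1 and 6.44 FPKM in replicate 2.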
